A study of Gallus gallus with 4 samples.

Results

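Isolated CTCF sites called in DT40 alone were taken from chromatin immunoprecipitation and sequencing (ChIP-seq) of chicken cells. CTCF peaks of 3 lists were merged into 15733 sites wherever they shared at least 1 bp. A site belonged to the set when DT40 was the one library with a peak there and no other DT40 site lay within 10000 bp, measured edge to edge. Sites were taken from 25 chromosomes, which are 1, 3 to 10, 12 to 19 and 21 to 28. Chromosomes 2, 11 and 20, the sex chromosomes and other sequences were left out. This gave 2018 sites, or 12.8% of all merged sites. The set was thus chosen by the peak calls of the 3 lists and by the gap between DT40 sites, and both are given below as descriptions.

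The series covers 4 libraries, with 1 library per group. DT40 is a chicken lymphoid line of the B-cell lineage that came from a bursal lymphoma. HD3 is an erythroblast line transformed by avian erythroblastosis virus, kept as clone A6 of the LSCC line. HD3 was profiled in an induced state, in which iso-H-7, an inhibitor of protein kinases, and a raised temperature drive erythroid differentiation, and in a non-induced state. All CTCF libraries used 1 custom rabbit antibody, whose antigen was the stretch of chicken CTCF between residues 86 and 233. The remaining library is an input, which comes from HD3 and was not analysed here. Whether the DT40 peaks were called against this HD3 input, another control or none is not stated, which limits what a call in DT40 alone can mean. Every group is a cell line grown in culture, so the sites describe these lines rather than B cells or erythroid cells of a bird.

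CTCF is a zinc finger protein that binds a long DNA motif through its finger array. It is known as the vertebrate insulator protein, and it stops cohesin as cohesin extrudes chromatin loops, so that its sites often lie at loop anchors and domain borders. Many CTCF sites are shared across cell types, while others are occupied in some lineages and not in others. In B cells CTCF is known for its part in shaping the immunoglobulin loci, and in erythroid cells for sites around the globin genes.

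The DT40 list held 13574 peaks, the list of induced HD3 4820 and that of non-induced HD3 8768. The median peak length was 712 bp in DT40, 650 bp in induced HD3 and 1217 bp in non-induced HD3. A longer peak overlaps a site more easily. The lists give a position and a caller score for each peak and no read counts, so the depth of the libraries is unknown. A site missing from a list was not called there, which does not show that it was unoccupied. No library had a replicate, so no difference below has a replicate check and no test between the cell lines was possible. Intervals are exact 95% intervals for counting error. They take sites as independent, although neighbouring sites share a region and a library. Sites are given by galGal4 coordinates, counted from 1. No sequence or gene model of that build was used here, so the sites carry no gene names and no motif.

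Most sites called in DT40 alone on these chromosomes stood apart from other DT40 sites. Of 3506 such sites, 2018 (57.6%, interval 55.9 to 59.2) were isolated and 1488 were clustered, meaning that another DT40 site lay within 10 kb. Over all 8866 DT40 sites of these chromosomes, 62.1% were isolated. Among DT40 sites also called in at least 1 HD3 list, here called shared sites, the share was 65.0% (interval 63.7 to 66.3), or 3484 of 5360. It hardly varied with the HD3 lists that had the site. It was 64.6% for sites called in all 3 lists and 65.6% for sites called in DT40 and non-induced HD3. For the few sites called in DT40 and induced HD3 it was 63.8% (83 of 130, interval 55.0 to 72.1).

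Read from the other side, sites called in DT40 alone made up 36.7% (interval 35.4 to 38.0) of the isolated DT40 sites and 44.2% (interval 42.5 to 45.9) of the clustered ones. The merging of peaks bears on this difference. An HD3 peak that spans neighbouring DT40 peaks joins them into a shared site, which can then count as isolated. Neighbouring DT40 peaks that nothing joined stayed separate and counted as clustered. The 8980 DT40 peaks of these chromosomes gave 8866 DT40 sites, and the effect of this joining was not tested. As a background, 39.5% of all DT40 sites on these chromosomes and 41.9% of all merged sites of the series were called in DT40 alone. The number of members depended on the lists compared. It was 553 when every list was cut to its 4820 top-scored peaks and 726 when DT40 peaks needed a score of at least 100. With the induced HD3 list as the sole comparison it was 3520, and with the non-induced list it was 2101. The share of isolated DT40 sites called in DT40 alone moved with it, to 21.9% for lists of equal length, 20.2% with the DT40 score minimum and 64.1% against induced HD3 alone. The shares among clustered sites were then 35.6%, 33.1% and 67.2%. The lists were cut to 4820 peaks over all chromosomes, so on the chromosomes used here they need not be of equal length.

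The members were mostly low-scored and rather short peaks. Their median DT40 score was 77.5 (interquartile range 61.2 to 107), near the bottom of a list whose lowest score was 50.0. Clustered DT40-alone sites had a median of 89.4 (interquartile range 65.4 to 132) and isolated shared sites one of 143 (interquartile range 89.2 to 253). A score of at least 100 was reached by 28.9% of the members (interval 27.0 to 31.0), by 41.5% of the clustered DT40-alone sites and by 69.1% of the isolated shared sites. With lists of equal length the members' median score was 192, and with a score minimum of 100 in DT40 it was 135. The members' median score was below that of the isolated shared sites on 25 of the 25 chromosomes. Isolated sites shared with both HD3 states had a median of 218, those shared with induced HD3 alone 89.1 (83 sites) and those shared with non-induced HD3 alone 103.

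**Figure D1:**
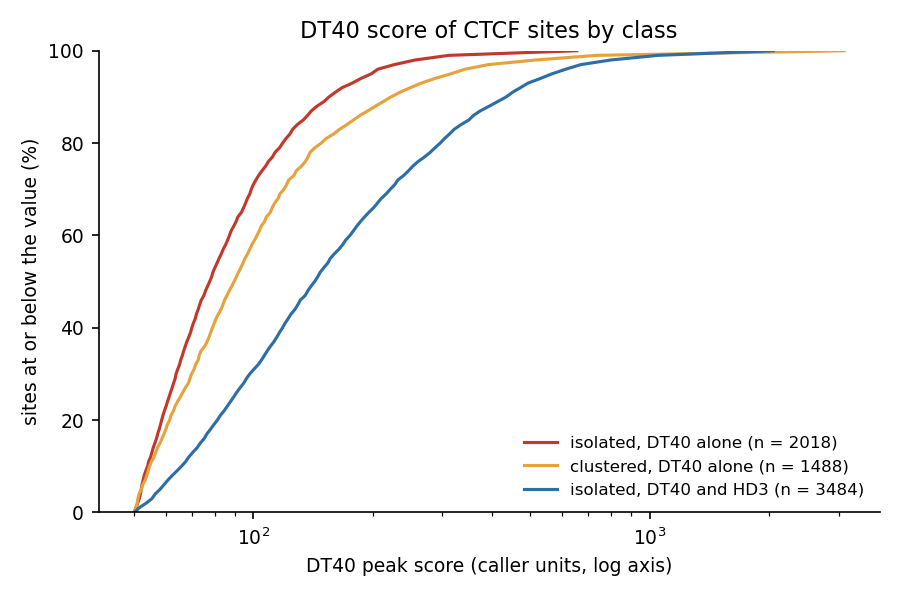
Cumulative share of sites (vertical axis, %) against the DT40 caller score (horizontal log axis), for isolated DT40-alone sites, clustered DT40-alone sites and isolated sites called in DT40 and HD3. The curve of the isolated DT40-alone sites lies to the left of the others over most of its range, with a median of 77.5, and ends at 655, while the other curves run on to 3100 and 2050.

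Each member was formed by 1 DT40 peak, which follows from the merging where peaks of the DT40 list do not overlap each other. The members were 247 to 5981 bp long, and their median length was 632 bp (interquartile range 561 to 719). The medians were 661 bp for clustered DT40-alone sites and 732 bp for isolated shared sites, and 712 bp over the whole DT40 list. Isolated sites shared with both HD3 states had a median of 779 bp. Those shared with non-induced HD3 alone had 691 bp, and those shared with induced HD3 alone 660 bp (83 sites), nearer to the members. The members' median was below that of the isolated shared sites on 25 of the 25 chromosomes. Length went with score within the set. The median was 577 bp for the 766 members in the lowest 20% of DT40 scores and 826 bp for the 56 members in the highest 20%, each taken over all DT40 sites of these chromosomes. Across the 2018 members Spearman's rho between score and length was 0.46, a description across sites of 1 library. Very long peaks were rare, with 4 members (0.198%) over 3000 bp, against 23 of 1488 clustered DT40-alone sites (1.55%). They were as rare among isolated shared sites, with 3 of 3484 (0.0861%). The longest member, named after its length was seen, lay on chromosome 1 at 1967139 to 1973119 with a score of 105.

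The highest-scored member lay on chromosome 9 at 6076158 to 6078040, with a score of 655 and rank 381 in the DT40 list. It was 1883 bp long, and its nearest DT40 neighbours were 589 kb to the left, a site called in all 3 lists, and 304 kb to the right. The nearest non-induced HD3 site was 45.3 kb away. The second lay on chromosome 26 at 2801453 to 2802491 (score 505), with DT40 neighbours at 128.2 kb and 164.8 kb, and the nearest HD3 site was 111 kb away. Both thus stood in wide stretches with no other DT40 call.

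The next members stood in quite different surroundings. The third, on chromosome 24 at 6115543 to 6116644 (score 449), sat between sites called in all 3 lists, 11.9 kb and 14.3 kb away. The fourth, on chromosome 25 at 1200387 to 1201163 (score 415), had a DT40-alone site on either side, at 68.0 kb and 84.1 kb. Next came a pair on chromosome 1, at 176484993 to 176487270 (score 395) and at 162277812 to 162280031 (score 385). The first of this pair had DT40-alone neighbours at 16.3 kb and 26.7 kb and no HD3 site within 115 kb, and the other had no HD3 site within 297 kb. The last 4 of the 10 had scores of 383, 375, 370 and 361. Of these, the site of chromosome 19 ran between 3323420 and 3324334, that of chromosome 5 between 16719050 and 16719844, that of chromosome 7 between 21779340 and 21780069, and that of chromosome 18 between 6857423 and 6858772. Of the 20 DT40 sites next to these 10 members, 13 were called in DT40 alone. Over all members 41.3% of the neighbouring DT40 sites were DT40-alone, and over all DT40 sites of these chromosomes 39.5% were. With 20 neighbours of 10 chosen sites, the count shows no trait of high-scored members.

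Because the classes differed in score, isolated and clustered DT40 sites were set side by side at equal DT40 score. All 8866 DT40 sites were divided into 10 equal groups by score. In the lowest group, with scores of 50.0 to 58.5, 68.3% of isolated sites (interval 64.3 to 72.1) and 73.7% of clustered sites (interval 68.5 to 78.5) were called in DT40 alone. In the sixth group, with scores of 113 to 137, the shares were 31.0% (interval 27.2 to 35.0) and 46.6% (interval 41.1 to 52.2). In the ninth, with scores of 233 to 358, they were 8.91% (interval 6.60 to 11.7) and 22.97% (interval 18.8 to 27.6). In the highest group 10 of 501 isolated sites (2.00%, interval 0.961 to 3.64) were DT40-alone, against 56 of 386 clustered sites (14.5%, interval 11.1 to 18.4). The share was lower among isolated than among clustered sites in each of the 10 groups, by 5.43 to 15.6 percentage points. The joining of DT40 peaks by HD3 peaks bears on this difference too, and its effect was not tested. The set was concentrated at low score, with 1565 of 2018 members in the lower 5 groups.

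**Figure D2:**
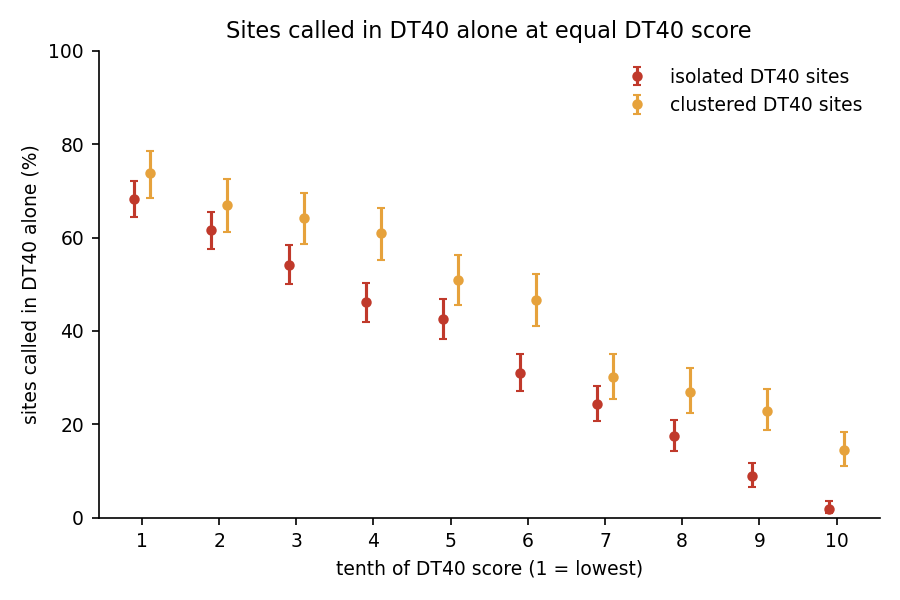
Share of DT40 sites called in DT40 alone (vertical axis, %, with exact 95% intervals) in 10 groups of equal size by DT40 score (horizontal axis, 1 is the lowest), for isolated and clustered DT40 sites. Both shares fall with score, and the isolated sites lie below the clustered sites in every group, down to 2.00% against 14.5% in the highest.

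Isolation was set by DT40 sites, so HD3 sites could still lie near a member. A site called in HD3 and not in DT40 lay within 1 kb of 20 members (0.991%) and within 10 kb of 112 members (5.55%, interval 4.59 to 6.64). For isolated shared sites the same counts were 32 (0.918%) and 262 (7.52%, interval 6.67 to 8.45) of 3484. Within 1 kb the shares were alike, and within 10 kb the share was the lower one for members. The 5 members closest to an HD3 peak were 53, 268, 303, 309 and 346 bp from a non-induced HD3 peak. The first lay on chromosome 5 at 49916863 to 49917462 , and the second on chromosome 1 at 53617989 to 53618599. The others lay on chromosome 3 at 87024302 to 87024920, chromosome 7 at 5396475 to 5397134 and chromosome 4 at 53106617 to 53107366. The nearest induced HD3 sites of these 5 were between 64.7 and 278 kb away. Extending HD3 peaks by 1000 bp on either side left 1998 members.

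Over longer distances the members lay somewhat further from HD3 sites than isolated shared sites lay from the next one. The median distance from a member to the nearest HD3 site was 35.4 kb (interquartile range 18.5 to 75.7), against 30.4 kb (16.8 to 59.8) from an isolated shared site to the nearest other HD3 site. To the nearest induced HD3 site it was 67.1 kb against 56.2 kb, and to the nearest non-induced one 36.6 kb against 31.2 kb. An HD3 site lay within 100 kb of 82.2% of members (interval 80.4 to 83.8) and of 88.2% of isolated shared sites (interval 87.1 to 89.3). The gap to the nearest DT40 site was nearly equal in both sets, with medians of 30.7 kb and 30.4 kb. Clustered DT40-alone sites had a median distance of 8.37 kb to the nearest HD3 site, and 56.3% had one within 10 kb. By the rule, a clustered site has a DT40 site within 10 kb, which may also be an HD3 site, while a member has none. Of the clustered sites, 4.37% (interval 3.39 to 5.53) had an HD3 site not called in DT40 within 10 kb, against 5.55% of members. Without chromosome 1 the median distances to any HD3 site were 32.6 kb for members and 28.6 kb for isolated shared sites. The members' median depended on the HD3 peaks counted, and was 61.3 kb to the induced list alone, with members chosen against that list, and 56.2 kb with a score of at least 100 throughout.

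**Figure D3:**
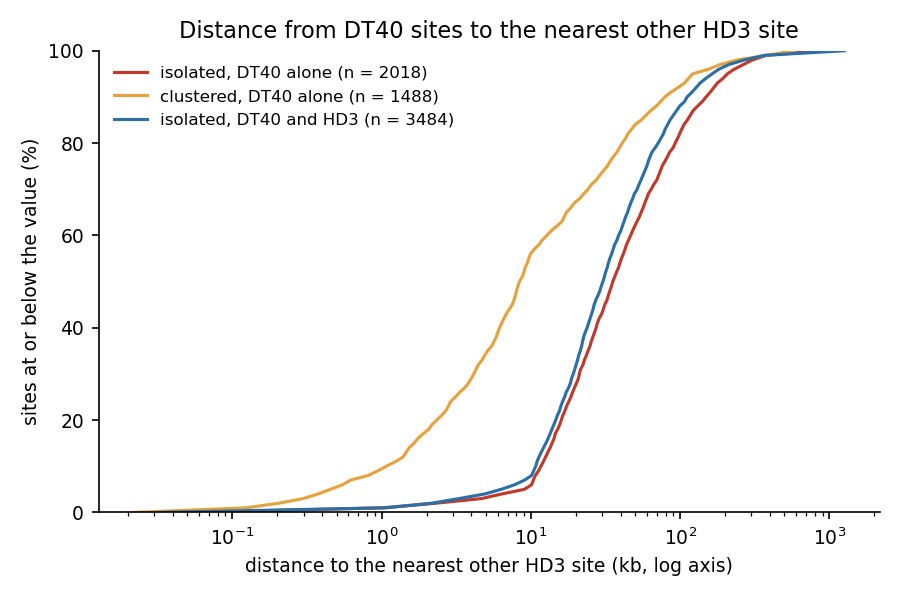
Cumulative share of sites (vertical axis, %) against the distance to the nearest other HD3 site in kb (horizontal log axis), for the same 3 classes. Both isolated classes bend at 10 kb, below which a neighbouring HD3 site cannot be a DT40 site, and the isolated DT40-alone sites have a median of 35.4 kb against 30.4 kb for isolated shared sites.

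The 5 members with the largest gaps to other DT40 sites had scores of 52.9 to 67.3. On chromosome 4 at 70629051 to 70629559 a member with a score of 65.0 had DT40 neighbours at 1199 and 1219 kb, the largest gap in the set among sites flanked on both sides. The next 3 lay on chromosome 1, at 160009847 to 160010379, 27638483 to 27638922 and 43024907 to 43025398, with scores of 67.3, 52.9 and 66.8. The last lay on chromosome 6 at 6101689 to 6102313 and had a score of 61.4. Their nearest DT40 sites were 831, 797, 766 and 763 kb away. The site on chromosome 6 and that at 43024907 on chromosome 1 had an HD3 site at 15548 and 27973 bp, while the other 3 had none closer than 732 kb.

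The class of the neighbouring DT40 sites was not part of the rule, although their distance was. Of the 4018 DT40 sites next to a member, 41.3% (interval 39.7 to 42.8) were themselves called in DT40 alone, against 55.3% (interval 53.5 to 57.1) of those next to a clustered DT40-alone site and 33.7% (interval 32.6 to 34.8) of the 6954 next to an isolated shared site. The value for members lay close to the 39.5% of DT40-alone sites among all DT40 sites of these chromosomes. Sites called in all 3 lists made up 31.2% of the neighbours of members and 36.7% of those of isolated shared sites. The order was the same in the lower and in the upper 5 score groups, although the sets were not matched for score within either. For sites in the lower 5 score groups the shares of DT40-alone neighbours were 39.7% (interval 38.0 to 41.5) and 32.3% (interval 30.5 to 34.2). In the upper 5 groups they were 46.5% (interval 43.2 to 49.8) and 34.6% (interval 33.1 to 36.0). By chromosome, the share was higher around members than around isolated shared sites on 18 of 25 chromosomes and lower on 7. Without chromosome 1 the shares were 39.0% (interval 37.2 to 40.7) and 33.0% (interval 31.8 to 34.2). When members and neighbours were classed against induced HD3 alone, 65.3% of the neighbours of members were DT40-alone. That lay between the shares over all isolated (64.1%) and all clustered (67.2%) DT40 sites in that setting. A neighbour between a pair of members was counted for each of them, so the intervals are too narrow.

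Of the 2000 members with a DT40 site on either side, 396 (19.8%, interval 18.1 to 21.6) stood between DT40-alone sites and 746 (37.3%) between shared sites. For isolated shared sites, 11.3% (interval 10.3 to 12.4) stood between DT40-alone sites. Members flanked on both sides by sites called in all 3 lists numbered 220 of 2000 (interval 9.66 to 12.5%), against 13.5% (interval 12.4 to 14.7) of isolated shared sites. A site called in HD3 and not in DT40 lay somewhere between the flanking DT40 sites for 33.3% of members (interval 31.2 to 35.4) and for 38.3% of isolated shared sites (interval 36.6 to 39.9).

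Counted along the DT40 sites of a chromosome, 952 members (47.2%) had no member as a direct neighbour, and 536 stood in runs of 2. Runs of 5 or more members held 129 members in 23 runs. The 2 longest runs had 8 members each. One covered 658 kb of chromosome 1 at 152376198 to 153034438, with scores of 52.3 to 210, and the other 783 kb of chromosome 7 at 1466755 to 2249933, with scores of 64.1 to 235. Runs of 7 lay on chromosome 1 at 105330050 to 105696458, 173808117 to 174062511 and 194730113 to 194921570. No HD3 site lay inside these 5 runs. By construction a run can hold no HD3 site that is also a DT40 site, so this bears on HD3 sites that DT40 lacked. Of the 5 runs, 4 lay on chromosome 1. The runs were chosen for their length after it was seen. Members made up 22.8% of the DT40 sites of these chromosomes. Whether the run lengths differ from what this share would give was not tested, and no runs of isolated shared sites are given for comparison.

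Members were denser on small chromosomes, as other DT40 sites were. On the 16 microchromosomes of the set there were 3.83 members per Mb (interval 3.51 to 4.18), on the 5 intermediate chromosomes 2.84 (interval 2.57 to 3.13) and on the 4 macrochromosomes 2.38 (interval 2.24 to 2.53). Macrochromosomes were here 1, 3, 4 and 5, and intermediate ones 6 to 10. Members were 1.61 times as dense on microchromosomes as on macrochromosomes (interval 1.45 to 1.79). The same ratio was 2.89 (interval 2.59 to 3.24) for clustered DT40-alone sites and 1.81 (interval 1.67 to 1.96) for isolated shared sites. The isolation rule bears on these ratios, since sites lie closer together where they are dense. Of the DT40-alone sites, 47.3% (interval 44.3 to 50.2) were isolated on microchromosomes, 64.3% (interval 60.4 to 68.0) on intermediate ones and 61.7% (interval 59.4 to 64.0) on macrochromosomes. With 20000 bp as the limit the ratio for members was 1.35, and with every list cut to 4820 peaks it was 2.59.

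Among chromosomes the density ran between 2.02 members per Mb on chromosome 3 (interval 1.76 to 2.30) and 5.70 on chromosome 26 (interval 3.85 to 8.14). The short chromosome 16, with 3 members on 0.484 Mb, stands apart at 6.19 per Mb with an interval of 1.28 to 18.1. After chromosome 26 came chromosome 24 with 4.96 (interval 3.37 to 7.03) and chromosome 17 with 4.69 (interval 3.47 to 6.20), and many of these intervals overlapped. On every one of the 25 chromosomes members were fewer than isolated shared sites. Their share of the isolated DT40 sites was 42.4% on chromosome 7 (interval 36.5 to 48.5), 42.5% on chromosome 24 (interval 31.0 to 54.6) and 42.1% on chromosome 1 (interval 39.2 to 45.0). The lowest shares were 22.9% on chromosome 25 (interval 10.4 to 40.1) and 23.7% on chromosome 28 (interval 13.6 to 36.6). Over the 24 chromosomes other than 16, Spearman's rho between span and member density was -0.70, and between span and the members' share of the isolated sites 0.23.

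**Figure D4:**
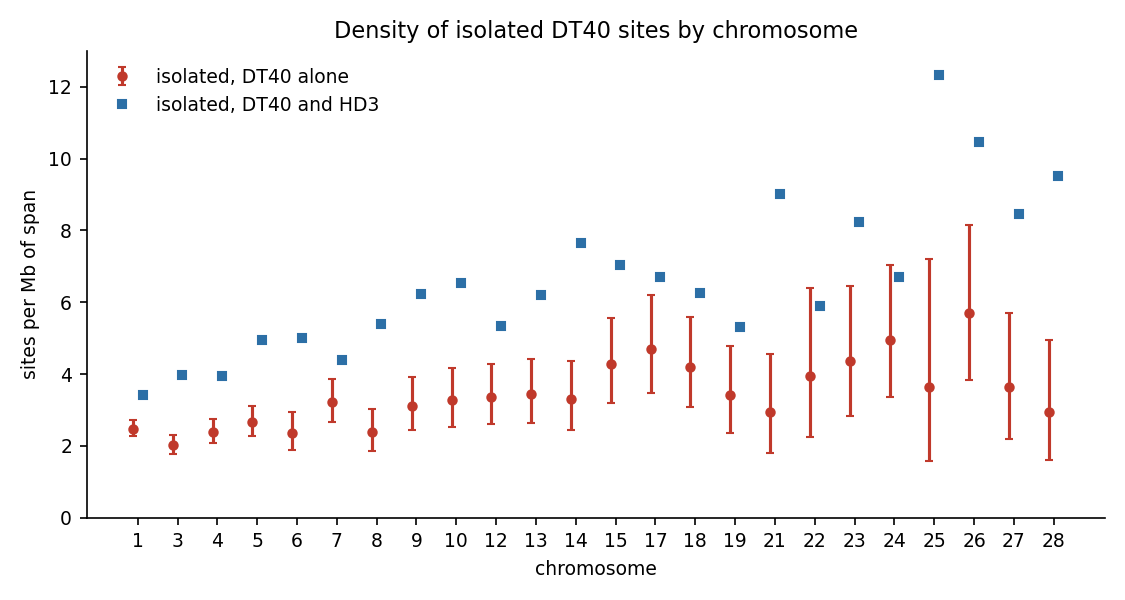
Sites per Mb of chromosome span (vertical axis) on 24 chromosomes, without 16 (horizontal axis), for isolated DT40-alone sites with exact Poisson 95% intervals and for isolated sites called in DT40 and HD3. The DT40-alone sites range between 2.02 per Mb on chromosome 3 and 5.70 on chromosome 26, and the shared sites lie above them on each chromosome.

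Within chromosomes the members were unevenly spread. The 135 whole segments of 5 Mb held between 1 and 40 members, with a median of 12 (interquartile range 9 to 16.5), against 5 to 54 isolated shared sites with a median of 22. The variance of the counts over their mean was 3.45 for members, 13.5 for clustered DT40-alone sites and 4.23 for isolated shared sites. Across segments Spearman's rho between the counts of members and of isolated shared sites was 0.42, and it was 0.57 between members and clustered DT40-alone sites. These are descriptions across segments of the same libraries. The segment with 1 member lay on chromosome 4 at 70000001 to 75000000 and held 9 isolated shared sites.

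The 3 segments with the most members lay next to each other on chromosome 1. They had 40 members at 175000001 to 180000000, 40 at 170000001 to 175000000 and 34 at 165000001 to 170000000, beside 14, 17 and 28 isolated shared sites. Members outnumbered isolated shared sites in 13 of the 135 segments. Of these, 6 were among the 9 whole segments of chromosome 1 beyond 150 Mb. Another was the first 5 Mb of chromosome 7, with 24 members against 6 isolated shared sites.

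The far part of chromosome 1, beyond 150 Mb, was set beside the rest of that chromosome after these counts were seen. It held 4.35 members per Mb (interval 3.76 to 5.00) against 1.92 in the first 150 Mb (interval 1.70 to 2.16). Clustered DT40-alone sites differed more, at 3.98 per Mb (interval 3.42 to 4.60) in the far part and 1.45 (interval 1.27 to 1.66) in the first 150 Mb, and all DT40 sites together had 12.9 and 8.43 per Mb. Isolated shared sites ran the other way, at 2.45 per Mb (interval 2.02 to 2.95) in the far part and 3.71 (interval 3.41 to 4.03) in the first 150 Mb. The isolation rule bears on these densities, since a site with another DT40 site within 10 kb was not counted as isolated. DT40 sites were denser in the far part, and the effect of the rule there was not tested. Peaks of induced HD3 numbered 3.18 per Mb in the far part and 3.52 in the first 150 Mb, and those of non-induced HD3 5.46 and 7.23. The members' share of isolated DT40 sites was 64.0% (interval 58.3 to 69.3) in the far part and 34.1% (interval 30.9 to 37.4) in the first 150 Mb. Members of the far part had a median score of 86.3 (interquartile range 61.5 to 128), and those of the first 150 Mb 74.7 (interquartile range 61.1 to 100). Isolated shared sites had median scores of 212 in the far part and 124 in the first 150 Mb. Higher DT40 scores in the far part were thus not confined to members. The series holds no DT40 input, so the DT40 counts and scores of this part could not be set against input DNA of that line.

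On chromosome 7 the first 5 Mb held 4.8 members per Mb (interval 3.08 to 7.14) and the rest 2.98 (interval 2.40 to 3.65). Clustered DT40-alone sites had 3.00 per Mb (interval 1.68 to 4.95) in that stretch and 0.672 (interval 0.416 to 1.03) in the rest. This stretch too was chosen after its counts were seen. The members' share of isolated DT40 sites was 24 of 30 there (interval 61.4 to 92.3%) and 37.8% in the rest (interval 31.7 to 44.2). Members had a median score of 106 (interquartile range 66.2 to 172) in that stretch and 67.0 (59.1 to 99.0) in the rest. Isolated shared sites had medians of 139, from 6 sites, and 136. Unlike on chromosome 1, the higher median was thus seen for members and hardly for isolated shared sites. Here too no DT40 input was available. HD3 peaks were called in this stretch as well, 12 in induced and 28 in non-induced HD3, which is 2.40 and 5.60 per Mb, against 4.77 and 8.93 per Mb in the rest of the chromosome.

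**Figure D5:**
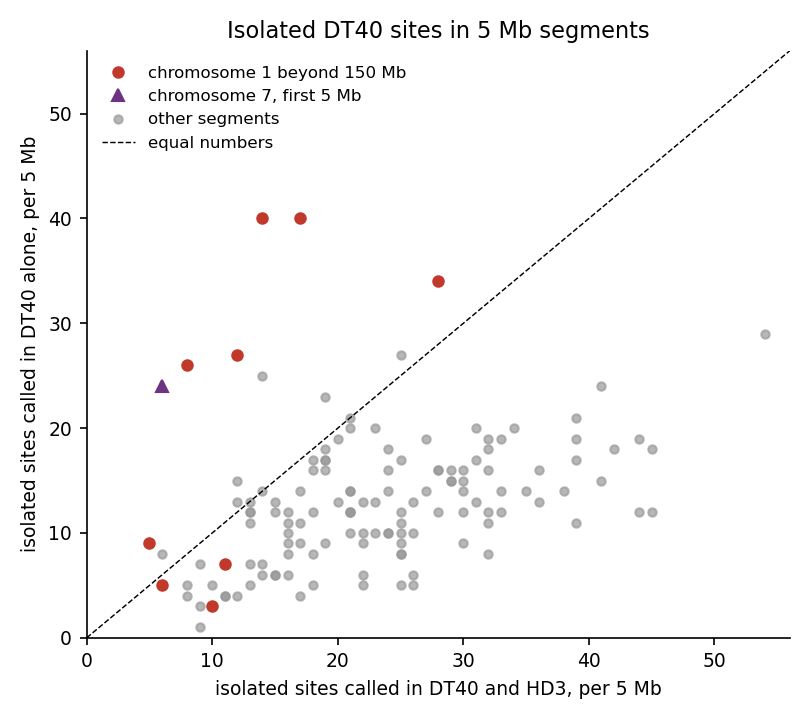
Isolated DT40-alone sites (vertical axis) against isolated sites called in DT40 and HD3 (horizontal axis) in each of 135 whole segments of 5 Mb, with the 9 segments of chromosome 1 beyond 150 Mb and the first 5 Mb of chromosome 7 marked. Most points lie below the dashed line of equal numbers, and 6 of the 9 segments of chromosome 1 beyond 150 Mb lie above it, up to 40 DT40-alone sites.

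Members were also more frequent towards chromosome ends. When each chromosome was folded at its middle and cut into 5 parts of equal length, the outermost part held 24.6% of the members (interval 22.8 to 26.6), 31.8% of the clustered DT40-alone sites (interval 29.4 to 34.2) and 19.6% of the isolated shared sites (interval 18.3 to 20.96). Without chromosome 1 these shares were 24.8%, 30.3% and 20.8%. The other 4 parts held 17.4 to 20.0% of the members each. Chromosome spans end at the last peak of any list, since no galGal4 chromosome length was used.

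Scores were alike on either side of the 10000 bp limit. The 5 members just inside it had gaps of 10035, 10037, 10057, 10060 and 10070 bp and scores of 63.5, 102, 89.4, 164 and 242. The 5 DT40-alone sites just outside had gaps of 9995, 9995, 9975, 9962 and 9942 bp and scores of 62.6, 92.4, 124, 91.3 and 107. For the 100 sites nearest to the limit on either side, the median score was 81.9 inside and 81.6 outside, and the median length 644 and 653 bp.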

How the data were processed

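Per the submitters' processing notes, CASAVA 1.8.2, Bowtie2 and MACS were used with build galGal4. The settings, and the control that MACS was given for each list, are not stated in those notes. The authors deposited 1 peak list per CTCF library, with a score for each peak. The scale of this deposited score is not stated, so scores were compared within the DT40 list and not between lists. The exception is the alternative setting that required a score of at least 100 in every list, which takes the scores as alike in scale. Where the DT40 score is given for a site, it is that of its DT40 peak. For a site that held several DT40 peaks, which no member did, the score is the highest of them. The length of such a site runs between the outer edges of its DT40 peaks.

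Peaks sharing at least 1 bp were merged into sites. Distances run between the edges of sites. Shares carry exact Clopper-Pearson intervals, densities exact Poisson intervals and ratios of densities exact conditional intervals. No p-value was computed, since each group has 1 library. Merging, isolation and the distance from members to the nearest peak of a list were checked on simulated lists. The distances between sites used to compare the classes were not part of that check. The tools were SciPy 1.17.1 for intervals, pandas 2.3.3 and NumPy 2.4.6 for tables and matplotlib 3.10.9 for plots, under Python 3.11.15.

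The members, measures and alternatives were chosen with earlier results of these data known. Named sites are the 10 highest-scored members, the 5 with the largest gap among members flanked on both sides, the 5 closest to an HD3 peak, the 5 on either side of the 10000 bp limit, the 3 segments with most members and the extreme chromosomes. A planned look at sequence and annotation was not run, because it needs galGal4 sequence and gene models, which were not used here.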

Additional observations from a re-analysis of the deposited data

How the results depend on the processing

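No paired analysis was possible because groups consist of single libraries, and no replicate could be left out. DT40-alone sites were less frequent among isolated than among clustered sites in 15 of 15 settings, and the micro- to macrochromosome ratio of the members stayed above 1 in 16 of 16. The joining of DT40 peaks by an HD3 peak, given above, can bear on the first of these counts. In the lists below, "isolated", "clustered" and "neighbours" are the shares called in DT40 alone, and score, length and HD3 distance are medians over the members. Unless stated, values are listed only where they left the interval of the main result, and numbers of members only for the largest changes. Members also numbered 2353 under 50% reciprocal overlap and 1524 with a score of 100 or more throughout. They numbered 2431 with a limit of 5000 bp and 1413 with one of 20000 bp. A reciprocal overlap of 50% gave isolated 43.2%, clustered 50.1%, neighbours 46.7%, a length of 622 bp and an HD3 distance of 28410 bp. HD3 peaks extended by 1000 bp gave clustered 40.1%, beside isolated 36.3%, which stayed within its interval, so the shares lay closer together. Requiring a score of 100 or more throughout gave isolated 42.3%, clustered 49.1%, neighbours 47.1%, score 137, length 724 bp, HD3 distance 56216 bp and a ratio of 2.05. Requiring it in DT40 only gave 726 members, isolated 20.2%, clustered 33.1%, neighbours 28.99%, score 135, length 718 bp and a ratio of 2.19. The 4820 top-scored peaks of each list gave 553 members, isolated 21.9%, clustered 35.6%, neighbours 29.3%, score 192, length 773 bp, HD3 distance 44909 bp and a ratio of 2.59. A limit of 5000 bp gave clustered 48.6% and HD3 distance 30984 bp, and one of 20000 bp gave 42.1%, 44104 bp and a ratio of 1.35. With no site of any list within 10000 bp the HD3 distance was 38395 bp. The next 4 settings were chosen after the data were seen. Without chromosome 1, isolated was 35.2%, clustered 40.8%, neighbours 39.0% and HD3 distance 32582 bp. Without its part beyond 150 Mb they were 35.1%, 42.3%, 38.6% and 33673 bp. Without the non-induced HD3 list there were 3520 members, with isolated 64.1%, clustered 67.2%, neighbours 65.3%, score 86.4, length 657 bp and HD3 distance 61319 bp. Without the induced list, isolated was 38.2% and neighbours 42.8%. Midpoints within 500 bp, leaving out peaks over 3000 bp and, for the ratio, counting chromosomes 1 and 3 to 8 as macrochromosomes moved no value beyond its interval. Requiring higher scores raises the median score and lowers the number of peaks by construction. Some other shifts are partly built in as well. Leaving out an HD3 list removes calls that a DT40 site could share. The isolation limit sets how near a site called in both DT40 and HD3 may lie to a member. Under reciprocal overlap a member may still overlap an HD3 peak in part, which shortens the HD3 distance. For the remaining shifts the cause was not tested.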

Other observations

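DT40 peaks were long on chromosome 24, both for the 31 members (median 772 bp) and for the 42 isolated shared sites (median 1017 bp). On the other chromosomes of the set these medians lay between 572 and 688 bp for members and between 681 and 915 bp for isolated shared sites. On the short chromosome 16, 38 of 41 DT40-alone sites were clustered and 3 were members, so this chromosome contributed little to the set. The members of chromosome 26 had the highest median score of any chromosome in the set, at 107.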
